A study of Mus musculus with 11 samples.

Results

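Mouse 2-cell embryos derived from oocytes without Daxx were compared with control embryos in 5 RNA-seq libraries of a series of 11, the other 6 being from oocytes. The 5 libraries were taken by the stage and genotype in their labels: 3 of control embryos (replicates 1 to 3) and 2 of maternal knockout embryos (replicates 2 and 3), and all genes were examined. A first replicate of the knockout embryos was not analysed here. Both groups of females carried floxed Daxx alleles (Daxx f/f) on a mixed C57BL/6J and 129/Sv background and were over 8 weeks old. Knockout females also carried a Zp3-cre transgene, whose promoter is active in growing oocytes. Control embryos are labelled m+z+ and knockout embryos m-z+. Superovulation used 5 IU of PMSG and then 5 IU of hCG, oocytes were collected 20 h after hCG and fertilised in vitro with sperm of 8-week-old JF1 males, which brought in the paternal Daxx allele. Zygotes with both pronuclei were cultured in KSOM medium until 33 h after fertilisation, the late 2-cell stage. Each library was a pool of 50 embryos from 2 to 3 females. Only the knockout females carried Cre, so the loss of Daxx and the presence of the transgene cannot be told apart.

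DAXX is a chaperone that, with the remodeller ATRX, places the histone variant H3.3 at repeats, telomeres and pericentromeric heterochromatin, and it is a resident of PML nuclear bodies. The mouse embryo starts from RNA stored in the oocyte. That RNA is degraded during the first cleavage while the zygotic genome is switched on, with a large burst of transcription at the late 2-cell stage. A transcript seen in a maternal knockout embryo can therefore have been inherited from the oocyte or made by the embryo, and total RNA of pooled embryos does not separate these sources. In pooled material, fewer cells with a transcript and less of it per cell cannot be told apart either.

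The embryo libraries held 17978192 to 25308468 counted reads. Levels are given as CPM, counts of a gene divided by all counted reads of its library and scaled to the same total in each. Where a library had no read of a gene, a level of up to 0.119 to 0.167 CPM (3 reads, by library) was still possible, which covers counting error only. On log2 CPM, every pair of embryo libraries correlated at r of 0.982 to 0.986 across genes, which are not independent replicates. The closest pair was a control (replicate 2) with a knockout (replicate 3), so the libraries did not sort by genotype over the whole transcriptome. Lars2, the mitochondrial leucyl-tRNA synthetase gene, had a share of reads that varied strongly between libraries. It held 0.482%, 1.85% and 0.871% of reads in the controls and 1.81% and 0.552% in the knockouts, differing more within the groups than between them.

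The embryo labels were checked against markers. Zfp352, a gene switched on at the 2-cell stage, was at 286, 354 and 230 CPM in control embryos and at 313 and 337 CPM in knockout embryos, and no read of it was counted in control oocytes. The 15 markers of the 2-cell stage summed to 1374, 1610 and 1407 CPM in controls and to 1459 and 1583 CPM in knockouts. The 22 granulosa and cumulus cell markers summed to 63.6 to 78.8 CPM in controls and to 60.7 and 80.2 CPM in knockouts, mostly from Amhr2, and 9 were abundant enough to be tested. Inha and Sult1e1 were at 0 in all 5 libraries and Foxl2 reached 0.217 CPM in 1 control only, while Cyp19a1, Star and Tnfaip6 were at a few CPM in both groups. Ptgs2, an enzyme of expanding cumulus cells, was at 1.22, 0.679 and 1.35 CPM in controls and at 4.82 and 1.55 CPM in knockouts (log2 1.51 ± 0.45 SE, unadjusted p 0.00398, not called). The knockout oocyte libraries also lay above their controls for Ptgs2 (log2 1.25 ± 0.28 SE, adjusted p 0.13), and its part in other results was not tested. The 18 blood and immune markers, of which 3 were tested, summed to 5.51 to 8.68 CPM in controls and to 8.53 and 8.64 CPM in knockouts, with Hba-a2, Hbb-bs and Hbb-b2 at 0 throughout. Of the 3, Cd68 did not overlap, at 1.5, 2.19 and 2.26 CPM in controls and 3.4 and 2.95 CPM in knockouts (log2 0.64 ± 0.33 SE, unadjusted p 0.0728). It was apart in oocytes as well (log2 0.71 ± 0.23 SE, adjusted p 0.278). Itgam, at a few CPM in both groups, and Lyz2 overlapped. The 21 sperm markers summed to 255 to 273 CPM in controls and to 264 and 294 CPM in knockouts, mostly from Odf2, a gene also used in somatic centrosomes. Tnp1 did not exceed 0.868 CPM in any library. Of the 13 sperm markers tested, 2 (Pgk2 and Prm2) had both knockout libraries above all controls (15.4%, against 11.4% of all genes). Izumo1 alone had both below (7.69%, against 6.38%).

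Genotype was tested for 15414 genes with edgeR's quasi-likelihood test and Benjamini-Hochberg adjustment over all of them. At an adjusted p under 0.05, 4 genes were higher in maternal knockout embryos (0.026% of genes tested) and 0 were lower (0%). The 4 were the hair follicle keratin gene Krt73, the small nucleolar RNA gene Snord73b, the neuronal adaptor gene Ap3b2 and the pleckstrin-homology gene Plekhh1. Without adjustment, 320 genes were higher (2.08%) and 171 were lower (1.11%) at p under 0.05. DESeq2 made 9 higher calls and 1 lower call, and limma-voom made 2 and 0. The count of higher calls fell to 0 when control replicate 1 or control replicate 3 was left out, and it was 5 without control replicate 2. Both knockout libraries lay above all controls for 1762 genes (11.4%) and below all controls for 983 genes (6.38%). These percentages are the background for every count of non-overlapping libraries given here. The median log2 difference over all genes was 0.00, with quartiles of -0.14 and 0.17. It was positive for 50.4% of genes and negative for 49.6%, which is the background for the counts of sign given here.

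**Figure D1:**
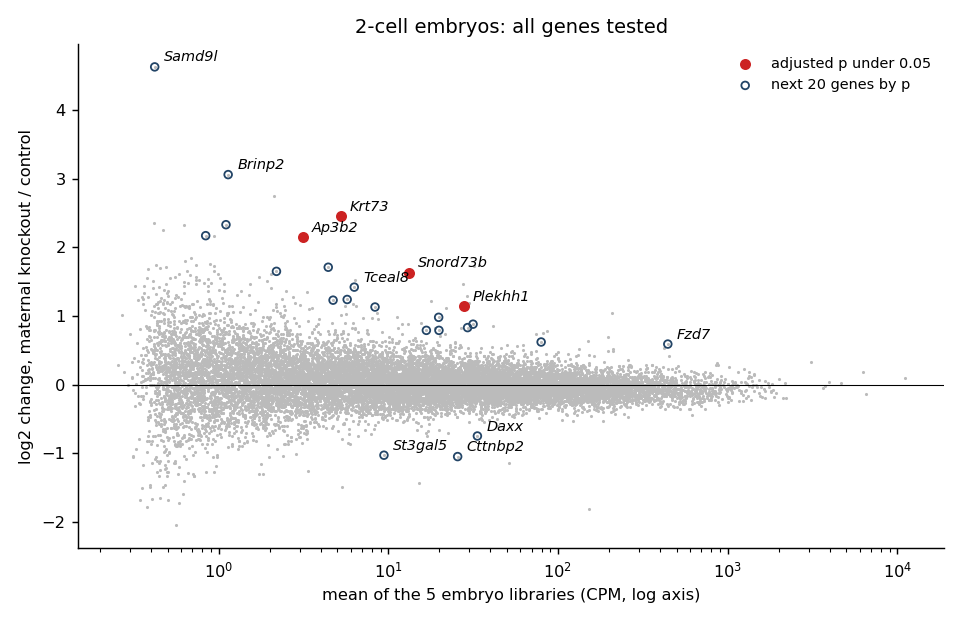
Log2 difference between maternal knockout and control 2-cell embryos (vertical axis) against the mean level of the 5 embryo libraries in CPM (horizontal log axis), 1 point for each of the 15414 genes tested. Filled points mark the 4 genes with an adjusted p under 0.05 and open circles the next 20 by p, of which 17 lie above 0 and 3 below.

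Daxx itself was examined first. It stood at 37.3, 35.2 and 46.7 CPM in control embryos and at 22.8 and 25.5 CPM in maternal knockout embryos. The groups did not overlap, and the knockout mean of 24.2 ± 1.88 CPM (SD, n = 2) was 0.596 of the control level on the fitted scale, against a control mean of 39.7 ± 6.14 CPM (SD, n = 3). The log2 difference was -0.75 ± 0.19 (SE, 95% interval -1.14 to -0.36) with an unadjusted p of 0.000811 and an edgeR adjusted p of 0.544, so that Daxx itself missed the threshold over all genes. It passed in 1 of 15 alternative analyses, the fit of all 11 libraries together (adjusted p 0.0348), and its adjusted p ranged from 0.0348 to 1 over them. Counts are summed over the whole gene, so reads from exons outside the deleted part would be included.

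The oocytes of the same kinds of females, arrested in metaphase of the second meiotic division (MII), gave 3 control and 3 knockout libraries that do not enter the 5-library embryo fit. In them Daxx was at 97.2, 94.2 and 86.2 CPM in controls and at 8.2, 8.4 and 7.83 CPM in knockouts (log2 -3.52 ± 0.07 SE, adjusted p 1.24e-11). At that stage 64 genes were higher (0.45% of 14235 tested) and 19 were lower (0.133%). From oocyte to embryo the control level of Daxx went to 42.9% of its oocyte level, while the knockout level went to 297%. The genotype effect was thus smaller in embryos by a log2 difference of 2.76 (adjusted p 3.38e-07 for the difference between stages). Only 2 of 17018 genes passed that test with a more positive effect in embryos (0.0118%) and 0 with a more negative one (0%). Daxx, which passed in 14 of 14 alternatives, was 1 of them, and Tceal8, which passed in 8 of 14, the other.

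Krt73 encodes a type II keratin of the inner root sheath of the hair follicle and lies in the keratin cluster of chromosome 15. It was at 1.33, 2.82 and 1.39 CPM in control embryos and at 9.13 and 11.5 CPM in maternal knockout embryos. Both knockout pools lay far above every control, and the gene rose 5.45-fold (log2 2.45 ± 0.33 SE, 95% interval 1.74 to 3.15, adjusted p 0.0113). The read counts behind these levels were 24, 54 and 32 in controls and 231 and 238 in knockouts. It passed in 12 of 15 alternatives, and among others missed the threshold without control replicate 1 (adjusted p 0.284) and without control replicate 3 (adjusted p 0.078).

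Ap3b2 encodes the beta subunit of the neuronal form of the AP-3 complex, which sorts cargo to synaptic vesicles. It was at 0.834, 1.31 and 1.74 CPM in control embryos and at 6.6 and 5.26 CPM in maternal knockout embryos. The groups were again well apart and the gene rose 4.44-fold (log2 2.15 ± 0.34 SE, 95% interval 1.44 to 2.86, adjusted p 0.0282). It passed in 8 of 15 alternatives and among others missed the threshold without control replicate 1, control replicate 3 or knockout replicate 2 (adjusted p 0.342, 0.078 and 0.127).

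Plekhh1 encodes a protein with pleckstrin homology, MyTH4 and FERM domains. Its control levels of 18, 18.5 and 18.8 CPM were nearly the same, and the maternal knockouts were at 49.7 and 33.8 CPM. It rose 2.2-fold (log2 1.14 ± 0.19 SE, 95% interval 0.74 to 1.54, adjusted p 0.046). This was the weakest of the 4 calls. It passed in 5 of 15 alternatives, and with knockout replicate 2 left out its log2 difference was 0.87 with an adjusted p of 0.598. Leaving out control replicate 1, 2 or 3 also raised its adjusted p above 0.05 (0.357, 0.073 and 0.257).

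The promoters of these 3 protein-coding genes are shown because the genes moved in the same direction while their upstream sequence differs in CG content, the dinucleotide at which mammalian cytosines are methylated. Each is the 250 bases before the transcript start given in the RefSeq promoter table of GRCm38.p6, written 5′ to 3′ on the gene's strand with every CG in capitals. The windows are chr15:101802361-101802610 on the minus strand for Krt73, chr7:81493926-81494175 on the minus strand for Ap3b2 and chr12:79028913-79029162 on the plus strand for Plekhh1. Those of Krt73 and Plekhh1 end where the annotated gene begins, while the Ap3b2 start used lies within the gene's annotated span, so 72 bases of its window are inside that span.
Krt73 promoter: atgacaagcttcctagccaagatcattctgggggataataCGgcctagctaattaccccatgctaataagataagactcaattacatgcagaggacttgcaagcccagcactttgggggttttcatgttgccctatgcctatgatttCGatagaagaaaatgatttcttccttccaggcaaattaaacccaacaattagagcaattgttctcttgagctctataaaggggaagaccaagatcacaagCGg
Ap3b2 promoter: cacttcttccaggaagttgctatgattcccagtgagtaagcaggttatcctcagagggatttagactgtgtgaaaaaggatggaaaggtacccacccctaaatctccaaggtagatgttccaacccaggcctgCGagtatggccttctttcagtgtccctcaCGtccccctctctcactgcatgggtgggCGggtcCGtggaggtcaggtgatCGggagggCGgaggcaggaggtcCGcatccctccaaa
Plekhh1 promoter: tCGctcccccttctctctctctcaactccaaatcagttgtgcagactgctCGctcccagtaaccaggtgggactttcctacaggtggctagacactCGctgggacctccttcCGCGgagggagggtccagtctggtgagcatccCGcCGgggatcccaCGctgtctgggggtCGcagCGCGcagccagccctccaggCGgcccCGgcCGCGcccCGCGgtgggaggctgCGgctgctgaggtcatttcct
The Krt73 window holds 3 CG, and 71% of 32851 such windows hold at least as many. The Ap3b2 window holds 7 CG (46.3% hold at least as many) and the Plekhh1 window 18 CG (21.7%). TATAAA, searched on both strands and sharing no letters with a CG, is in the Krt73 window, as it is in 12.4% of all windows. It is not in the other 2 windows. These are descriptions of the letters, and no chromatin or methylation data enter here.

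Snord73b, the remaining call, is a C/D box small nucleolar RNA, of the class that guides 2′-O-methylation of ribosomal RNA. Its sequence and that of its sister Snord73a are shown because both lie in introns of the ribosomal protein gene Rps3a1 and their values differ. They are from the GENCODE M21 annotation and GRCm38, at chr3:86140618-86140688 and chr3:86138791-86138858, both on the minus strand. They are written 5′ to 3′ with the C box (TGATGA) and the D box (CTGA) in capitals, searched on the transcript strand.
Snord73b: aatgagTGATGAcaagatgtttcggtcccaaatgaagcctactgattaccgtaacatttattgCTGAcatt
Snord73a: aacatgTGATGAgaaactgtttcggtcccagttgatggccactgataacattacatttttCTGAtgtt
The RNAs are 71 and 68 bases long, and 24% of the 1507 annotated small nucleolar RNAs hold both motifs in this order.

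Snord73b was at 6.84, 8.57 and 5.77 CPM in control embryos and at 24.3 and 20.5 CPM in maternal knockout embryos. The groups did not overlap and it rose 3.09-fold (log2 1.63 ± 0.23 SE, 95% interval 1.14 to 2.11, adjusted p 0.0113). It passed in 10 of 15 alternatives and among others missed the threshold without control replicate 1, control replicate 3 or knockout replicate 2 (adjusted p 0.284, 0.078 and 0.0834). Snord73a, by contrast, overlapped between the groups at 0.612, 1.78 and 0.608 CPM in controls and 1.94 and 0.966 CPM in knockouts (log2 0.51 ± 0.52 SE). The host gene Rps3a1 was at 17.3, 16.5 and 22.9 CPM in controls and at 11.8 and 17.5 CPM in knockouts (log2 -0.40 ± 0.23 SE, unadjusted p 0.101). How the authors counted reads shared by a host gene and an RNA in its intron is not stated in the labels.

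**Figure D2:**
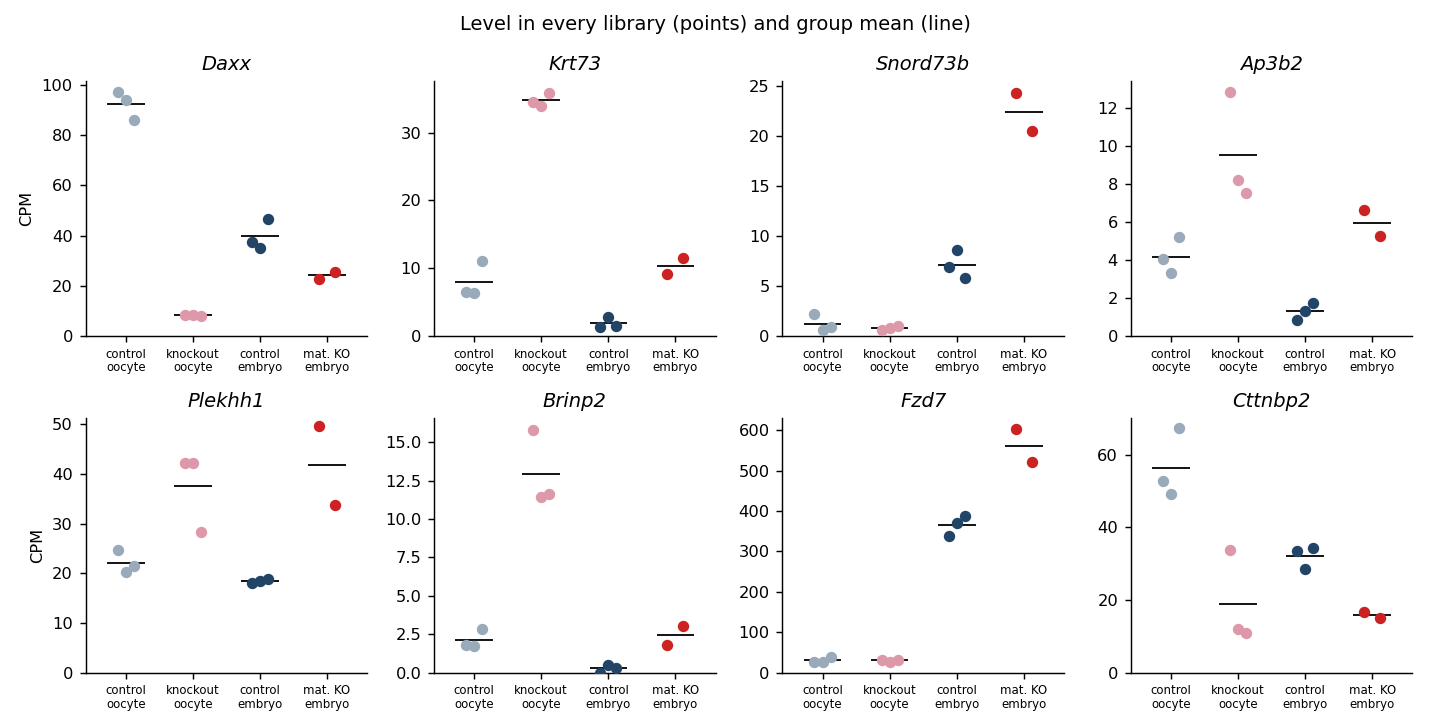
Level in CPM (vertical axes, each from 0) of Daxx, the 4 called genes and 3 of the next 20 in every library of the 4 groups; points are libraries and lines are group means. In the embryos the 2 knockout points lie apart from the 3 control points in all 8 panels, below them for Daxx and Cttnbp2 and above them for the other 6.

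The C/D box RNAs were then described as a class, Snord73b included. Of 60 tested, 18 had both knockout libraries above all controls (30%, against 11.4% of all genes) and 0 had both below. Snord11 was at 6.29, 7.99 and 3.56 CPM in controls and at 13.9 and 11.2 CPM in knockouts (log2 1.04 ± 0.30 SE, unadjusted p 0.00342). Snord42b was at 0.89, 2.04 and 0.695 CPM in controls and at 4.07 and 2.51 CPM in knockouts (log2 1.41 ± 0.43 SE, unadjusted p 0.00488). Neither passed edgeR's adjusted threshold, and Snord73b was the only small nucleolar RNA called in that fit. Without the low-count filter Snord11, Snord1b, Snord111 and Snord82 were called as well, and Snord1b and Snord12 were called without control replicate 2. Among 33 tested H/ACA box RNAs, which guide pseudouridylation, 0 had non-overlapping libraries in either direction and the median log2 difference was -0.20, against 0.27 for the C/D box class. The 9 Cajal body RNAs tested had a median of -0.04. This split by class was chosen after the values were seen, and the difference between classes was not tested.

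The summed level of a class was far more variable between libraries than these counts show. C/D box RNAs summed to 2658, 5469 and 3259 CPM in controls and to 4512 and 4402 CPM in knockouts, so the knockouts lay inside the control range. H/ACA box RNAs summed to 1209, 2753 and 1993 CPM in controls and to 1775 and 1796 CPM in knockouts. Control replicate 2 had the highest share of reads in small nucleolar RNAs (0.904%, against 0.441% and 0.588% in the other controls and 0.682% and 0.694% in the knockouts). Leaving it out took the C/D box median to 0.71 and the H/ACA median to 0.13. Over the 5 single omissions the C/D box median ranged from 0.09 to 0.71. The part of this library-to-library variation in the Snord73b result was not tested. A fit with the Lars2 share of each library as a covariate gave Snord73b a log2 difference of 1.61 (adjusted p 0.00492). The Lars2 share is not the small nucleolar RNA share (1.81% and 0.552% against 0.682% and 0.694% in the knockouts), so that fit does not test this variation.

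**Figure D3:**
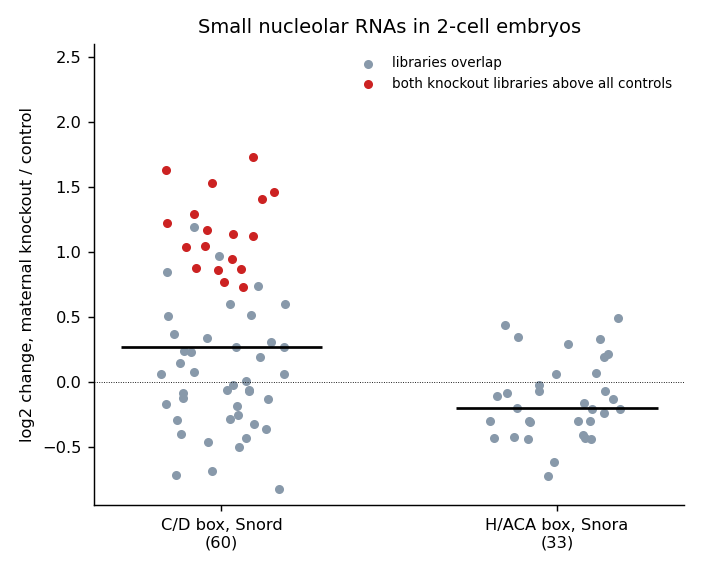
Log2 difference between maternal knockout and control embryos (vertical axis) for each tested C/D box RNA (60 points) and H/ACA box RNA (33 points); horizontal bars are class medians, 0.27 and -0.20, and the horizontal scatter has no meaning. The 18 red points, all in the C/D box class, have both knockout libraries above all controls.

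The keratin cluster around Krt73 was described as a whole. Of its 26 genes in the table, 8 were abundant enough to be tested. All 8, Krt73 included, had a positive log2 difference, with a median of 0.32. Of them 5, again with Krt73, had both knockout libraries above all controls (62.5%, against 11.4% of all genes). The cluster was chosen with the values of Krt73 known, and the median half-width of its intervals was 0.83. Its median log2 difference ranged from 0.18 to 0.61 when single libraries were left out. Krt71, another inner root sheath keratin, was at 1.61, 1.67 and 1.22 CPM in controls and at 3.16 and 4.15 CPM in knockouts (log2 1.25 ± 0.35 SE, unadjusted p 0.0021). Krt76, a keratin of the oral epithelium, was at 0.334, 0.366 and 0.217 CPM in controls and at 0.751 and 1.11 CPM in knockouts (log2 1.57 ± 0.58 SE, unadjusted p 0.0144). Neither passed adjustment, although in both genes the 2 groups of libraries were apart. In oocytes Krt71 was called higher in knockouts (log2 1.67 ± 0.24 SE, adjusted p 0.00958). Krt8, a keratin of simple epithelia and of the trophectoderm, overlapped between the embryo groups (log2 0.14 ± 0.44 SE). Like Krt71 it was called higher in knockout oocytes (log2 0.96 ± 0.18 SE, adjusted p 0.0405).

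The next 20 genes by p comprised 17 higher and 3 lower in maternal knockout embryos, the lower ones being Cttnbp2, St3gal5 and Daxx. All of them had libraries that did not overlap, which follows from their small p and is given as a description. Several have known roles in neurons. Nxph1, a secreted ligand of neurexins, was at 0.334, 0.418 and 0.478 CPM in controls and at 2.65 and 1.64 CPM in knockouts (log2 2.33 ± 0.46 SE, adjusted p 0.139). Nefh, the heavy neurofilament subunit, was at 18.1, 12.4 and 11.7 CPM in controls and at 28.7 and 28.1 CPM in knockouts (log2 0.98 ± 0.22 SE, adjusted p 0.344). Bsn, which encodes the presynaptic scaffold Bassoon, was at 3.17, 3.19 and 2.74 CPM in controls and at 6.84 and 7.68 CPM in knockouts (log2 1.23 ± 0.28 SE, adjusted p 0.358). The pattern of 3 low and 2 high libraries was the same in each.

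Lrrc4, a postsynaptic adhesion molecule, was measured more precisely, at 64.4, 66.1 and 63.5 CPM in controls and 106 and 97.9 CPM in knockouts (log2 0.62 ± 0.15 SE, adjusted p 0.401). Brinp2, of a family induced by BMP and retinoic acid in neural cells, had 0, 10 and 7 reads in controls and 46 and 63 in knockouts (log2 3.06 ± 0.65 SE, adjusted p 0.344). Cttnbp2, a cortactin-binding protein of dendritic spines, differed in the other direction, with 33.6, 28.6 and 34.2 CPM in controls and 16.6 and 15.1 CPM in knockouts (log2 -1.05 ± 0.19 SE, adjusted p 0.068). DESeq2 called it (adjusted p 0.000121). Of the 42 tested genes in a list of neuronal and neurofilament genes, 1 was called by edgeR (Ap3b2), 3 by DESeq2 (with Cttnbp2 and Brinp2) and 0 by limma-voom, while 12 had both knockout libraries above all controls (28.6%) and 2 had both below (4.76%), with a median log2 difference of 0.21. That list was drawn up with the values of its leading genes known.

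Secreted factors, receptors and extracellular matrix genes were also among the next 20. Stc2, a secreted glycoprotein hormone, was at 2, 2.66 and 2.17 CPM in controls and at 5.97 and 9.32 CPM in knockouts (log2 1.71 ± 0.31 SE, adjusted p 0.068). Fzd7, a Wnt receptor of early embryos, was at 339, 370 and 387 CPM in controls and at 602 and 522 CPM in knockouts (log2 0.59 ± 0.13 SE, adjusted p 0.344). It was the most abundant of these genes, and its interval of 0.31 to 0.86 is correspondingly narrow. Csf1, the macrophage colony-stimulating factor, was at 14.5, 16.7 and 14.5 CPM in controls and at 25.3 and 28.4 CPM in knockouts (log2 0.79 ± 0.19 SE). Tnc, the matrix glycoprotein tenascin C, was at 0.501, 0.313 and 0.217 CPM in controls and at 1.66 and 1.5 CPM in knockouts (log2 2.17 ± 0.51 SE). None of these genes passed edgeR's adjusted threshold in the 5-library fit. Stc2 was called by DESeq2 (adjusted p 0.00201), in the fit of all 11 libraries (0.0394) and without the low-count filter (0.000164). Without knockout replicate 2, which leaves 1 knockout library, its log2 difference was 2.03. Csf1 was called in the fit of all 11 libraries (0.0394), and Fzd7 and Tnc without the low-count filter (0.0315 and 0.0435).

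Intracellular regulators and enzymes made up the rest. Sox6, an HMG-box transcription factor, was at 21.2, 22.6 and 26.3 CPM in controls and at 47.7 and 40.1 CPM in knockouts (log2 0.88 ± 0.18 SE, adjusted p 0.15). Stox2, a winged-helix protein, was at 5.45, 6.17 and 5.12 CPM in controls and at 12 and 13 CPM in knockouts (log2 1.13 ± 0.24 SE, adjusted p 0.254). Tceal8, of the X-linked elongation factor A-like family, was at 4.12, 3.61 and 3.39 CPM in controls and at 11.2 and 9.17 CPM in knockouts (log2 1.42 ± 0.26 SE, adjusted p 0.068). DESeq2 called all 3. Samd9l, an interferon-inducible antiproliferative gene, had 1, 1 and 0 reads in controls and 21 and 24 reads in knockouts (adjusted p 0.068). With so few control reads its log2 difference of 4.63 has a 95% interval of 2.86 to 6.41. Dzip1, a ciliary zinc finger protein, Gadl1, a decarboxylase, Pde10a, a cyclic nucleotide phosphodiesterase, and Kdelr2, a receptor for retrieval to the endoplasmic reticulum, had log2 differences of 1.24, 1.65, 0.83 and 0.79. St3gal5, the synthase of the ganglioside GM3, was at 12.3, 12.3 and 10.7 CPM in controls and at 6.8 and 5.02 CPM in knockouts (log2 -1.03 ± 0.25 SE, adjusted p 0.467).

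Of the 24 genes named by p (the 4 called genes and the next 20), 5 lie on chromosome 6: Samd9l at chr6:3372257-3399571, Nxph1 at chr6:8948614-9249619, Cttnbp2 at chr6:18366471-18515217, Lrrc4 at chr6:28828126-28831747 and St3gal5 at chr6:72097552-72154571 (GRCm38.p6). That is 20.8% of them, while chromosome 6 holds 4.69% of all genes tested. They do not share a direction: Samd9l, Nxph1 and Lrrc4 were higher, and Cttnbp2 and St3gal5 lower. Over the 723 tested genes of chromosome 6, 93 had both knockout libraries above all controls (12.9%) and 38 had both below (5.26%), against 11.4% and 6.38% over all genes. The labels do not say where in the genome the Cre transgene lies.

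The 21 genes named by p that were higher in maternal knockout embryos were then read in the oocyte libraries, which share no sample with the 5-library embryo fit. In 16 of the 21, all 3 knockout oocyte libraries lay above all 3 controls, against 10.1% of the 14235 genes tested at that stage. The oocyte log2 difference was positive in 18 of 21, with a median of 0.78 against 0.000 over all genes. The 9 that passed the adjusted threshold in oocytes were Krt73, Samd9l, Stox2, Brinp2, Nefh, Bsn, Lrrc4, Pde10a and Csf1. For example, Brinp2 was at 1.81, 1.73 and 2.86 CPM in control oocytes and at 15.8, 11.4 and 11.6 CPM in knockout oocytes (log2 2.57 ± 0.21 SE, adjusted p 0.000901). Krt73 was at 6.41, 6.28 and 11.1 CPM in control oocytes and at 34.5, 34 and 35.9 CPM in knockout oocytes (log2 2.11 ± 0.24 SE, adjusted p 0.0389). Ap3b2 and Plekhh1 had non-overlapping oocyte libraries but were not called there (log2 1.17, adjusted p 0.106, and log2 0.74, adjusted p 0.15).

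The other 5 of the 21 had overlapping oocyte libraries. Snord73b was at 2.15, 0.578 and 0.885 CPM in control oocytes and at 0.55, 0.771 and 1.01 CPM in knockout oocytes (log2 -0.62 ± 0.47 SE). Fzd7 was at 26.2, 26.5 and 38.3 CPM in control oocytes and at 31.5, 27.1 and 31.6 CPM in knockout oocytes (log2 -0.03 ± 0.17 SE). Tceal8 was at 100, 110 and 85.1 CPM in control oocytes and at 104, 105 and 85.1 CPM in knockout oocytes (log2 -0.02 ± 0.11 SE). Nxph1 and Tnc had positive oocyte differences (log2 0.83 and 0.78) with overlapping libraries. For Tceal8 the difference between stages passed the test (log2 1.45 ± 0.19 SE, adjusted p 0.0141, lost in 6 of 14 alternatives), while for Snord73b it did not (log2 2.24 ± 0.53 SE, adjusted p 0.913) and for Fzd7 the estimate was 0.61.

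**Figure D4:**
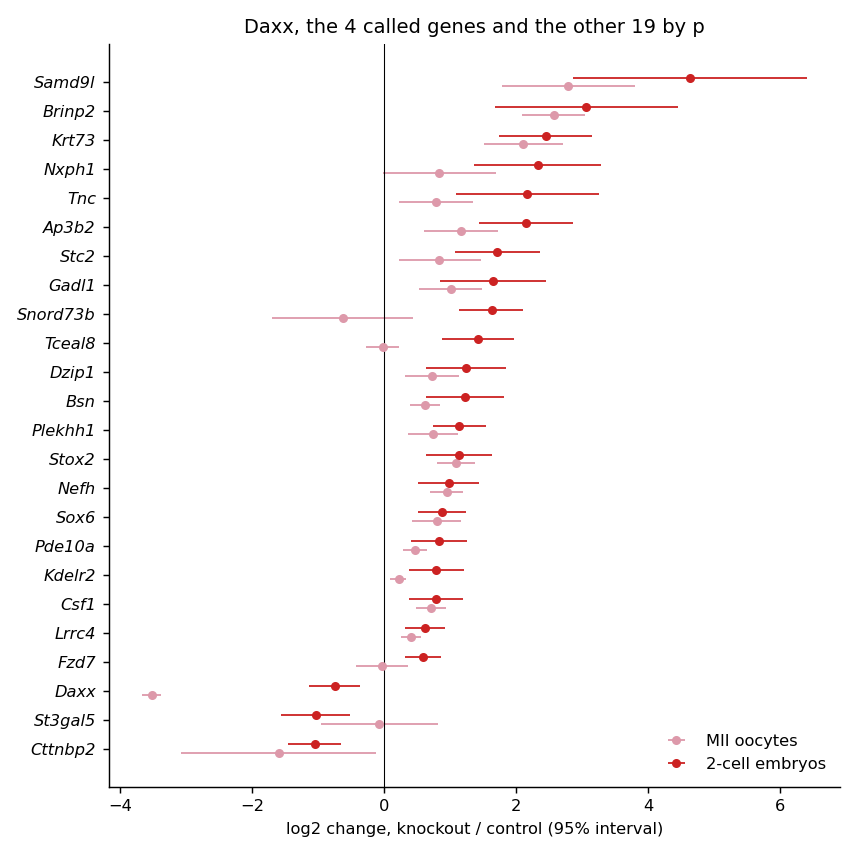
Log2 difference between knockout and control with its 95% interval (horizontal axis) for Daxx and the 23 other genes named by p, in 2-cell embryos (red) and in MII oocytes (pink). Among the 21 genes to the right of 0 in embryos, 18 also have an oocyte estimate above 0, and Snord73b, Tceal8 and Fzd7 do not.

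Control embryos held less of most of these transcripts than control oocytes. Of the 23 genes other than Daxx, 18 were below their oocyte level in CPM and 5 were above it. The same count was not made over all genes tested, so whether it is particular to these genes was not tested. Krt73 went to 23.3% of its oocyte level in controls and to 29.6% in knockouts. Nefh went to 40.2% and 41.5%, Csf1 to 25.3% and 26.9%, and Stox2 to 78.8% and 82%, so for these genes the ratio between genotypes was about as large after fertilisation as before it. Ap3b2 went to 31% in controls and 62.5% in knockouts, and Tceal8 to 3.76% and 10.4%. The 5 above their oocyte level in control embryos were Fzd7 (1204%), Snord73b (587%), Sox6 (133%), Lrrc4 (121%) and Nxph1 (114%).

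Genes were also classed by their level in control oocytes. The class of 756 genes with every control oocyte library under 0.1 CPM and an embryo mean of at least 1 CPM had a median log2 difference of -0.00. In it 44 genes (5.82%) had both knockout libraries above all controls and 21 (2.78%) had both below, and 0 genes were called by edgeR, DESeq2 or limma-voom (10 higher and 6 lower at an unadjusted edgeR p under 0.05). Among 7733 genes with every control oocyte library at 10 CPM or more, and again an embryo mean of at least 1 CPM, the shares were 12.8% and 7.42%. In that class 1 gene was called by edgeR and 4 by DESeq2. All 15414 genes tested held 4 edgeR calls (0.026%) and 10 DESeq2 calls. Of them 2.08% were higher and 1.11% lower at an unadjusted edgeR p under 0.05. Calls this few do not set the classes apart.

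The genes that work with DAXX were examined next, and none passed edgeR's adjusted threshold in the 5-library fit. Among 27 tested genes for H3.3, its chaperones and other histone chaperones, Daxx included, the median log2 difference was -0.07, 6 had both knockout libraries below all controls (22.2%, against 6.38% of all genes), 0 had both above and 19 had a negative difference. Atrx, the partner of DAXX, was at 854, 728 and 624 CPM in controls and at 644 and 673 CPM in knockouts (log2 -0.20, 95% interval -0.52 to 0.13). H3f3a, which encodes H3.3, was at 34.7, 38.8 and 35.5 CPM in controls and at 32.1 and 33.4 CPM in knockouts (log2 -0.18, interval -0.55 to 0.18). The other H3.3 gene, H3f3b, was at 219, 258 and 276 CPM in controls and 233 and 285 CPM in knockouts (log2 0.02, interval -0.29 to 0.33). Hira, the alternative H3.3 chaperone, overlapped as well (log2 0.09, interval -0.24 to 0.42). Those intervals leave out a 2-fold difference in either direction. Nasp, a chaperone of H3 and linker histones, was the lowest of the list after Daxx, at 743, 719 and 580 CPM in controls and 450 and 574 CPM in knockouts (log2 -0.44 ± 0.16 SE, unadjusted p 0.0153). Dek, a histone-binding protein, overlapped (log2 -0.29, interval -0.63 to 0.06).

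Heterochromatin and nuclear-body genes followed. Of 27 tested genes for heterochromatin and H3K9 methylation 22 had a negative log2 difference, the median was -0.11, and 1 gene had non-overlapping libraries in each direction. Trim28, the corepressor of KRAB zinc finger proteins, was at 333, 369 and 374 CPM in controls and at 373 and 309 CPM in knockouts (log2 -0.11, interval -0.39 to 0.17). Tasor and Mphosph8, of the HUSH silencing complex, had log2 differences of -0.32 ± 0.16 and -0.34 ± 0.18 (SE), with unadjusted p of 0.0557 and 0.0833. The 28 tested PML body and SUMO genes had a median of -0.07. Pml was at 18.7, 12.4 and 16.8 CPM in controls and at 18.1 and 16.4 CPM in knockouts, and Senp7, a SUMO protease of heterochromatin, at 22.1, 23.2 and 27.6 CPM and at 17.9 and 19.1 CPM (log2 -0.43 ± 0.19 SE, unadjusted p 0.0399).

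Zygotic activation was read from the transient 2-cell genes, many of them driven by endogenous retroviral promoters that are open at this stage. Of 63 tested, 0 had an unadjusted p under 0.05 in either direction (edgeR), the median log2 difference was -0.03 and the range was -0.31 to 0.42. Zscan4d was at 57.5, 84.7 and 50.8 CPM in controls and at 82.1 and 58.7 CPM in knockouts (log2 0.09, interval -0.40 to 0.57). Tdpoz4 was at 69.9, 87.8 and 96.3 CPM in controls and at 76 and 90.3 CPM in knockouts (log2 -0.05, interval -0.40 to 0.29). Tcstv3 was at 69.3, 94.8 and 65.9 CPM in controls and at 70.8 and 72.2 CPM in knockouts (log2 -0.14, interval -0.51 to 0.24). The groups overlapped in each, and the intervals of 55 of the 63 genes lay within a 2-fold difference (87.3%). For 50 first zygotic genes outside this set the median was -0.05, with 2 above (4%) and 7 below all controls (14%), and 49 intervals lay within 2-fold. Replication-dependent histone genes, made in bulk in the first S phases, had a median of -0.00 over 64 genes. That median ranged from -0.23 to 0.19 when single libraries were left out.

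The next list held genes whose products the oocyte stores. Of 62 maternal-effect and oocyte genes 51 had a positive log2 difference, the median was 0.13, 10 had both knockout libraries above all controls (16.1%, against 11.4%) and 1 had both below (1.61%). Oosp1, an oocyte-secreted protein, was at 373, 465 and 337 CPM in controls and at 599 and 481 CPM in knockouts (log2 0.42 ± 0.16 SE, unadjusted p 0.0161). Zp1, a zona pellucida glycoprotein, was at 37.2, 47.1 and 45 CPM in controls and at 58.8 and 56 CPM in knockouts (log2 0.38 ± 0.16 SE, unadjusted p 0.033). Gdf9, a growth factor of the oocyte, was at 167, 207 and 190 CPM in controls and at 237 and 220 CPM in knockouts (log2 0.25 ± 0.14 SE). In oocytes the same 3 genes differed by no more than 0.10 on the log2 scale. Zp3, whose promoter drives the Cre transgene, was at 42, 53.2 and 57.9 CPM in control embryos and at 56.3 and 60.7 CPM in knockouts, and overlapped. The median of the list went from -0.02 to 0.22 when single libraries were left out, so its sign depends on which libraries are used.

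Imprinted genes, DNA methylation genes and zinc finger genes were examined as the targets and machinery of silencing. Of 63 tested imprinted genes 11 had both knockout libraries above all controls (17.5%) and 0 below, with a median log2 difference of 0.12. Plagl1, a paternally expressed zinc finger gene, was at 16, 12.6 and 20.4 CPM in controls and at 26.7 and 23.4 CPM in knockouts (log2 0.58 ± 0.21 SE, unadjusted p 0.012). Peg3, also expressed from the paternal allele, overlapped at 29.4, 27.9 and 26.8 CPM against 27.1 and 25.4 CPM (log2 -0.13, interval -0.51 to 0.25). The counts are not split by parental allele. Tet2, a methylcytosine dioxygenase, was at 32, 28.9 and 23.4 CPM in controls and at 39.3 and 40.3 CPM in knockouts (log2 0.46 ± 0.19 SE, unadjusted p 0.0244). Tet3, the maternal enzyme of that family, was at 771, 899 and 724 CPM in controls and at 908 and 1092 CPM in knockouts (log2 0.29 ± 0.15 SE, unadjusted p 0.0674). Dnmt1, the maintenance methyltransferase, overlapped (log2 -0.11, interval -0.39 to 0.17). The 25 genes of that list had a median of -0.00, and 349 numbered zinc finger genes had one of -0.04 with 25 above (7.16%) and 30 below (8.6%) all controls.

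Genes for making and degrading proteins were mostly on the negative side. Of 94 tested ribosome assembly and nucleolar factors 84 had a negative log2 difference, the median was -0.15, 20 had both knockout libraries below all controls (21.3%, against 6.38% of all genes) and 0 had both above. Ebna1bp2, a nucleolar factor of the large subunit, was at 143, 140 and 135 CPM in controls and at 90.5 and 107 CPM in knockouts (log2 -0.53 ± 0.15 SE, unadjusted p 0.00256). Rrp1, another processing factor, was at 60.5, 57.8 and 63.7 CPM in controls and at 46.9 and 43.4 CPM in knockouts (log2 -0.46 ± 0.16 SE, unadjusted p 0.00881). Ncl, nucleolin, was at 921, 752 and 720 CPM in controls and at 600 and 682 CPM in knockouts (log2 -0.35 ± 0.15 SE, unadjusted p 0.0338). None of the 94 passed edgeR's adjusted threshold. In oocytes Ebna1bp2, Rrp1 and Ncl differed by -0.01, 0.09 and -0.06. The median of this list stayed between -0.23 and -0.09 over 15 alternatives.

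Cytosolic ribosomal proteins showed the lowest median of all lists, -0.19 over 88 genes, of which 77 had a negative difference and 9 had both knockout libraries below all controls (10.2%). Rpl36al was at 40.8, 46 and 45.5 CPM in controls and at 30.2 and 33 CPM in knockouts (log2 -0.51 ± 0.17 SE, unadjusted p 0.00805). Rpl22 was at 17.4, 20 and 24.8 CPM in controls and at 16.3 and 13.6 CPM in knockouts (log2 -0.50 ± 0.21 SE, unadjusted p 0.0267). The summed level of the list was 3150, 4321 and 4033 CPM in controls and 3620 and 3882 CPM in knockouts, so the sums overlapped. Of 82 splicing factors 11 were below all controls (13.4%) and 4 above (4.88%), with a median of -0.11. Of 36 proteasome subunits 6 were below (16.7%) and 0 above, with a median of -0.11, led by Psmd6 at 40.3, 36.8 and 43.7 CPM in controls and 28.9 and 28.3 CPM in knockouts (log2 -0.52 ± 0.17 SE, unadjusted p 0.00714). Over all genes the median also differed with level, being -0.06 for the 2440 genes at 100 CPM or more and 0.13 for the 1768 genes under 1 CPM. Under 1 CPM, 57 genes were higher and 15 lower at an unadjusted edgeR p under 0.05, and at 100 CPM or more 17 and 56. The part of expression level in these list medians was not tested, nor was it for the lists with positive medians.

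Signalling and energy genes were described by their counts. Of 54 tested Wnt and TGF beta genes 10 had both knockout libraries above all controls (18.5%) and 0 below, with a median log2 difference of 0.17. Lef1, a transcription factor of the Wnt pathway, was at 25.5, 27 and 21.4 CPM in controls and at 31.3 and 41.8 CPM in knockouts (log2 0.54 ± 0.20 SE, unadjusted p 0.0149). Of 47 genes of glycolysis, pyruvate and the citrate cycle 11 were above all controls (23.4%) and 0 below, with a median of 0.08. Ldhb, a lactate dehydrogenase subunit, was at 137, 228 and 166 CPM in controls and at 267 and 255 CPM in knockouts (log2 0.52 ± 0.18 SE, unadjusted p 0.0121). Pdha1, the pyruvate dehydrogenase subunit, overlapped (log2 -0.11, interval -0.43 to 0.21). No gene of either list passed edgeR's adjusted threshold.

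The stress and defence lists did not share a direction. Of 38 tested interferon and innate sensing genes 7 were above all controls (18.4%) and 1 below (2.63%), with a median of 0.14. Bst2, the antiviral protein tetherin, was at 3.06, 4.34 and 4.99 CPM in controls and at 7.47 and 7.05 CPM in knockouts (log2 0.78 ± 0.28 SE, unadjusted p 0.0115). Among 42 heat shock and oxidative stress genes 5 were above and 5 below all controls (11.9% each). Dnajb1, a co-chaperone, was at 109, 136 and 151 CPM in controls and at 178 and 185 CPM in knockouts (log2 0.43 ± 0.15 SE), while Hsp90aa1, the inducible HSP90, was at 210, 193 and 164 CPM and at 133 and 161 CPM (log2 -0.39 ± 0.16 SE). The 41 apoptosis and p53 genes had a median of -0.03. Mdm2, a p53 target and regulator, was at 236, 231 and 235 CPM in controls and at 215 and 188 CPM in knockouts (log2 -0.25 ± 0.13 SE). Genes for DNA damage and replication (55) and for the spindle and cell cycle (52) had medians of -0.06 and -0.07.

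Pluripotency and first-lineage genes had a median log2 difference of -0.09 over 31 genes with 3 genes above (9.68%) and 2 below (6.45%) all controls. Pou5f1 was at 108, 160 and 143 CPM in controls and at 142 and 148 CPM in knockouts (log2 0.05, interval -0.29 to 0.39). Sox2 was at 15.1, 11.4 and 14.2 CPM in controls and at 20.1 and 14.6 CPM in knockouts (log2 0.32, interval -0.14 to 0.78). Nanog, barely expressed at this stage, was at 2.06, 1.93 and 2.6 CPM in controls and at 1.82 and 1.06 CPM in knockouts (log2 -0.64, interval -1.44 to 0.16).

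**Figure D5:**
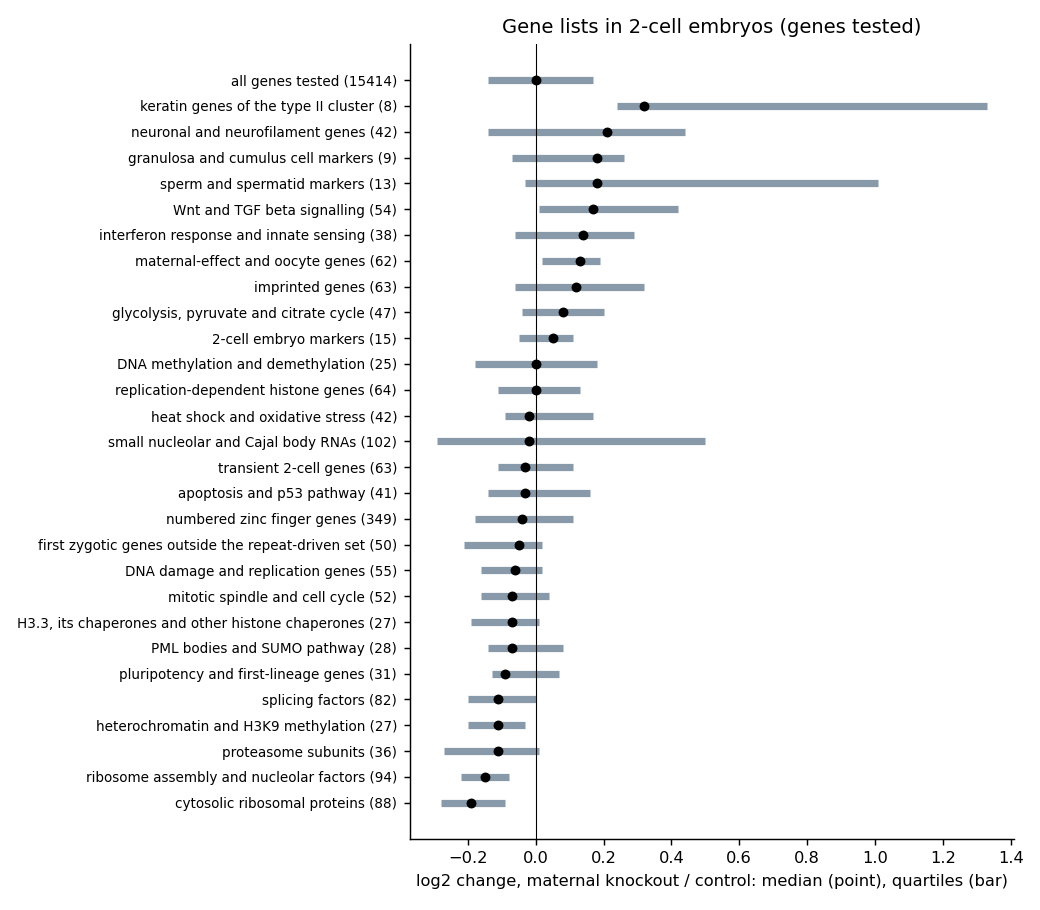
Median (point) and quartiles (bar) of the log2 difference between maternal knockout and control embryos for all genes tested and for 28 of the gene lists, with the number of genes tested in brackets. The keratin cluster has the highest median (0.32) and the cytosolic ribosomal proteins the lowest (-0.19); all genes together have a median of 0.00.

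The precision of the log2 differences depended on the level. For genes at 10 to 100 CPM the median half-width of the 95% interval was 0.40 on the log2 scale, and 97.1% of 5932 such genes had an interval inside a 2-fold difference. For genes at 1 to 10 CPM the half-width was 0.70 and 59.7% of 5274 genes had such an interval. Under 1 CPM it was 1.20, and 0.226% of 1768 genes did, so nearly all intervals there reached beyond a 2-fold difference. These intervals are not adjusted for the number of genes, and a difference near 2-fold could miss the adjusted threshold at 10 to 100 CPM as well. Examples are Cttnbp2 (0.482 of the control level, adjusted p 0.068) and Nefh (1.97-fold, adjusted p 0.344). Over all genes tested the share was 73.4%. With 2 knockout libraries, the spread assigned to that group rests mainly on what the model shares between genes and groups.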

How the data were processed

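Libraries were prepared from total RNA of the pools with NuGEN's SoLo RNA-Seq kit, per the labels' protocols. The authors deposited whole-number read counts of 24421 genes under Entrez numbers. The gene width in the same table was left aside. The submitters' processing notes name STAR 2.5.0a, SAMtools and the build GRCm38 (mm10). No label or header names the counting program, its use of strand or its treatment of shared reads and PCR duplicates, so values of overlapping genes and near-identical copies are uncertain. Symbols came from a RefSeq table (GRCm38.p6) that matched 24387 identifiers, and the 34 others held at most 0.0325% of reads of any library.

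Genes were kept with filterByExpr (count minimum 10, total minimum 15), scaled by TMM and tested with edgeR 4.0.16 (quasi-likelihood F test, robust) in R 4.3.3, with Benjamini-Hochberg adjustment and a threshold of 0.05. The embryo fit used 5 libraries, the oocyte fit 6 and the difference between stages all 11. The SE is the log2 difference divided by the square root of F. Alternatives were DESeq2 1.42.0, limma 3.58.1 (voom), other scaling and filters, a replicate block, the Lars2 share as covariate and each library left out. The scripts were tested on simulated counts. Embryo libraries held 17978192 to 25308468 reads and oocyte libraries 32582998 to 39798586.

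The members and the 29 gene lists were chosen with earlier results of these data known. Named genes were Daxx, all genes called in embryos, the next 20 by p without predicted genes, pseudogenes and small RNAs, and from each list the 3 members with the smallest p plus role examples. Some genes named by this rule are not reported here. Snord73a, Rps3a1 and the marker genes of other cell types were named in addition, after their values were seen. Libraries are separate pools, and the labels do not say whether pools shared males.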

Additional observations from a re-analysis of the deposited data

Results flagged for a closer look

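The genotype effect on Daxx was different between the stages. The log2 difference between knockout and control was -3.52 in oocytes and -0.75 in embryos, and the difference between the stages of 2.76 ± 0.16 (SE) passed edgeR's test over 17018 genes (adjusted p 3.38e-07).

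Tceal8 was the other gene that passed this test. In oocytes its log2 difference between genotypes was -0.02 ± 0.11 (SE, adjusted p 0.969), and in embryos it was 1.42 ± 0.26 (SE). The difference between the stages was 1.45 (adjusted p 0.0141). It passed in 8 of 14 alternatives, with an adjusted p of up to 0.824 (limma-voom), and was lost without control embryo replicate 2 or 3 (0.0607 and 0.0736), control oocyte replicate 1 or 2 (0.065 and 0.0581) or knockout embryo replicate 2 (0.13). Daxx passed in 14 of 14. For Tceal8 the embryo effect alone missed the threshold over all genes (adjusted p 0.068).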

How the results depend on the processing

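The number of genes called in embryos depended on the analysis. Against 4 higher genes, DESeq2 gave 9, the fit of all 11 libraries 12, library totals without TMM 2, limma-voom 2, no low-count filter 30, no robust estimation 2 and the replicate block 1. Single omissions gave 0 to 5, the 0 being without control replicate 1 and without control replicate 3. Against 0 lower genes, DESeq2, the Lars2 covariate, the fit of all 11 libraries and the replicate block gave 1 each, no filter 2, and single omissions 0 to 4, the 4 being without knockout replicate 3. In oocytes, against 64 higher and 19 lower genes, DESeq2 gave 154 and 73, no filter 130 and 53, single omissions 16 to 117 and 4 to 40, limma-voom 12 lower and the replicate block 32 lower. The oocyte extremes came from leaving out control replicates 1, 2 and 3 (19, 16 and 117 higher; 4, 5 and 40 lower). For the difference between stages, against 2 more positive and 0 more negative genes, DESeq2 gave 4 and 3, limma-voom 1 and 1, and single omissions 1 to 3 and 0 to 1.

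The replicate numbers of the embryos are only shared numbers. Deviations from the group means correlated at -0.14 for replicates numbered 2 and at -0.05 for those numbered 3. With the replicate block the called genes were Snord34 (log2 1.78) and the predicted gene Gm25018 (log2 -2.05). Under the block, H3f3b was at -0.07 and Pou5f1 at -0.08, against main values above 0.

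Of 81 genes followed, 9 changed sign under some alternative, in 15 of 1212 values, and all 9 had overlapping libraries. Apart from the block these were single omissions, with log2 ranges of -0.05 to 1.23 for Snord73a, -0.01 to 0.18 for Hira, -0.18 to 0.18 for H3f3b, -0.14 to 0.35 for Zscan4d, -0.04 to 0.31 for Zfp352, -0.23 to 0.10 for Tdpoz4, -0.26 to 0.06 for Tcstv3, -0.09 to 0.19 for Pou5f1 and -0.06 to 0.23 for Pml. The causes were not tested. With 2 knockout libraries and 3 controls, genes under 1 CPM cannot be judged at a 2-fold difference.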

Other observations

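The X chromosome had 75 genes with both knockout libraries above all controls among 570 tested (13.2%, against 11.4% over all genes) and 21 with both below (3.68%, against 6.38%). Without adjustment 21 of the 570 were higher and 4 lower at p under 0.05 (4.39% in either direction), and 0 were called by edgeR. Over all genes 2.08% were higher and 1.11% lower without adjustment, and 0.026% were called. Xist, the RNA that coats the inactive X chromosome, was at 1.61, 1.41 and 1.78 CPM in control embryos and at 3.56 and 2.17 CPM in maternal knockout embryos (log2 0.80 ± 0.35 SE, unadjusted p 0.0363).

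Some low-abundance genes of other lists were apart between the groups without passing adjustment. Pgk2 and Prm2 belong to the sperm marker list. Pgk2, a testis phosphoglycerate kinase, was at 0.834, 1.31 and 1.17 CPM in controls and at 2.96 and 2.27 CPM in knockouts (log2 1.20 ± 0.37 SE, unadjusted p 0.00494), and 0 reads were counted in the oocytes. Prm2, a protamine, was at 0.445, 0.261 and 0.825 CPM in controls and at 1.11 and 1.88 CPM in knockouts (log2 1.48 ± 0.52 SE, unadjusted p 0.0108). In oocytes Prm2 was at 1.6, 1.66 and 2.29 CPM in controls and at 5.87, 5.9 and 4.61 CPM in knockouts, where it was called (log2 1.54 ± 0.18 SE, adjusted p 0.00277). Izumo1, of the same list, went the other way in embryos. It was at 0.779, 1.57 and 1.35 CPM in controls and at 0.711 and 0.386 CPM in knockouts (log2 -1.18 ± 0.51 SE, unadjusted p 0.0343). Utf1, a chromatin factor of pluripotent cells, was at 0.389, 0.313 and 0.391 CPM in control embryos and at 1.7 and 0.579 CPM in knockouts (log2 1.60 ± 0.56 SE, unadjusted p 0.0111).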
